A study of Mus musculus with 4 samples.

Results

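In the RNA of whole testes from 24-day-old mice, 154 genes were low in one of the 2 Rfx2 mutant samples and near the control level in the other. RFX2 is a winged-helix transcription factor that binds X-box motifs in the promoters of ciliary genes, and male mice that lack it are infertile. The 4 samples were mutant 1 and mutant 2 (rfx2-/-) and control 1 and control 2, which the labels call wild-type and the methods of the study call heterozygous. The strain is given as DBA in the labels and as a mixed 129/s6 and C57BL/6 background in the methods. In the mutant allele a neomycin cassette driven by the phosphoglycerate kinase promoter took the place of the exons for the DNA-binding domain (exons 6 and 7), and all mutants descend from a single embryonic stem cell clone. Each sample was a separate biological preparation, and the deletion is carried in the germline, so that it is present in every cell of the testis. Because RNA came from whole testes, fewer cells of a type and less RNA per cell cannot be told apart in any value given here.

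The genes were chosen by their FPKM, the sequenced fragments per kilobase of transcript, scaled to the mapped fragments of the sample. A gene entered when its control mean was at least 5 FPKM, mutant 1 reached at most 0.4 of that mean and mutant 2 at least 0.75 of it. Symbols starting with Prm, Tnp, Spata, Tex, Odf, Akap, Adam, Tssk, Ccdc or Lrrc were left out. Of 22311 gene symbols, 8662 had a control mean of at least 5 FPKM, and 170 of these (1.96%) lay within the limits. The 16 that belonged to a dropped family were removed, which gave the 154. With the mutant samples exchanged, the same limits held 11 genes (0.127%), and 191 genes were at or below 0.4 of the control mean in both mutants. Since all 4 samples served in the choice, the levels below are a description and carry no test.

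The last steps of male germ cell development are spermiogenesis, in which round spermatids build an acrosome, a flagellum and a perinuclear cytoskeleton, elongate, and replace their histones first by transition proteins and then by protamines. The messenger RNAs of these late steps appear in order, so in the first wave of spermatogenesis of a young male the spermatid RNAs are the last to rise. Many genes active in spermatids have short, intron-poor transcripts and promoters with few CpG dinucleotides. Whether a delay of spermatid maturation accounts for the 154 genes was not tested, and the levels of stage markers are given beside them. With 1 sample showing the loss, a feature of that animal or of its library and an effect of the genotype cannot be told apart.

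The starting region of 5 members and of 1 gene for comparison is printed because low CpG number was the sequence feature that most of the 154 genes had in common. Each line gives the 100 bases before the transcription start in the mouse build NCBIM37 (mm9), 5′ to 3′ on the strand of the gene, and capitals mark CpG. Actrt2, Spem1, Prss37 and Fscn3 are members described below, Ccin is a member whose window holds a full cAMP response element, tgacgtca, 50 bases before the start, and Hspa2 is a gene of pachytene spermatocytes at a like level in all 4 samples.
Actrt2 (chr4:154041977-154042076, minus strand): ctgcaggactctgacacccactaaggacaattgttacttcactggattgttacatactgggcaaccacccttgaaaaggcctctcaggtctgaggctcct
Spem1 (chr11:69635683-69635782, minus strand): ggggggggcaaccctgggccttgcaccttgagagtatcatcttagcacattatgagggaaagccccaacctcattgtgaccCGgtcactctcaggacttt
Prss37 (chr6:40469508-40469607, minus strand): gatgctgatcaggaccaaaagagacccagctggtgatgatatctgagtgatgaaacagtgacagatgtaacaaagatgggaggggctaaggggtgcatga
Fscn3 (chr6:28377689-28377788, plus strand): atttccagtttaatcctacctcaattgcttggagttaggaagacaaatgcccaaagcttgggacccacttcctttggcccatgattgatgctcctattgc
Ccin (chr4:43996276-43996375, plus strand): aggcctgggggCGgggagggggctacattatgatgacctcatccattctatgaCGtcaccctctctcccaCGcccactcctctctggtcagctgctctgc
Hspa2 (chr12:77505063-77505162, plus strand): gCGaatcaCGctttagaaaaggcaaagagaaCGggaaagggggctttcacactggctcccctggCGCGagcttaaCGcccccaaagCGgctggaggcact

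Rfx2 itself measured 36.7 FPKM in mutant 1 and 39.8 FPKM in mutant 2 against 123 and 89.4 FPKM in the controls. Its level fell by 1.43 on the log2(FPKM + 1) scale (SE 0.19, limma adjusted p = 0.00617, n = 2 per group), and the remaining signal comes from a gene-level value that also covers the exons outside the deletion. Over all genes, 327 of 12985 tested passed at lower levels in the mutants (2.52%) and 40 at higher levels (0.308%). At an unadjusted limma p under 0.05, 867 of the 12985 were lower and 261 higher. The summed FPKM ran from 360029 to 390774 per sample, and 12557 to 12942 genes reached 1 FPKM. The files hold FPKM and no counts; the study's methods state a total number of reads for each sample, which was not used here.

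In the control mean the 154 genes had a median of 19.8 FPKM, from 5.54 to 286 FPKM. Mutant 1 stood at a median of 29.1% of the control mean, from 0 to 39.99%, and 46 genes were at or under 25%. Mutant 2 stood at a median of 110%, from 76.1 to 409%. Mutant 2 was above both controls in 73 genes, between them in 62 and below both in 19. Across all 8662 genes mutant 2 lay above both controls in 27.5% and below both in 32.1%, while mutant 1 lay below both in 28.0%. The limit for mutant 2 reached only down to 75%, so these counts partly follow from the choice. Mutant 2 exceeded 150% of the control mean in 14 genes, and 47 lay between 75 and 100%.

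**Figure D1:**
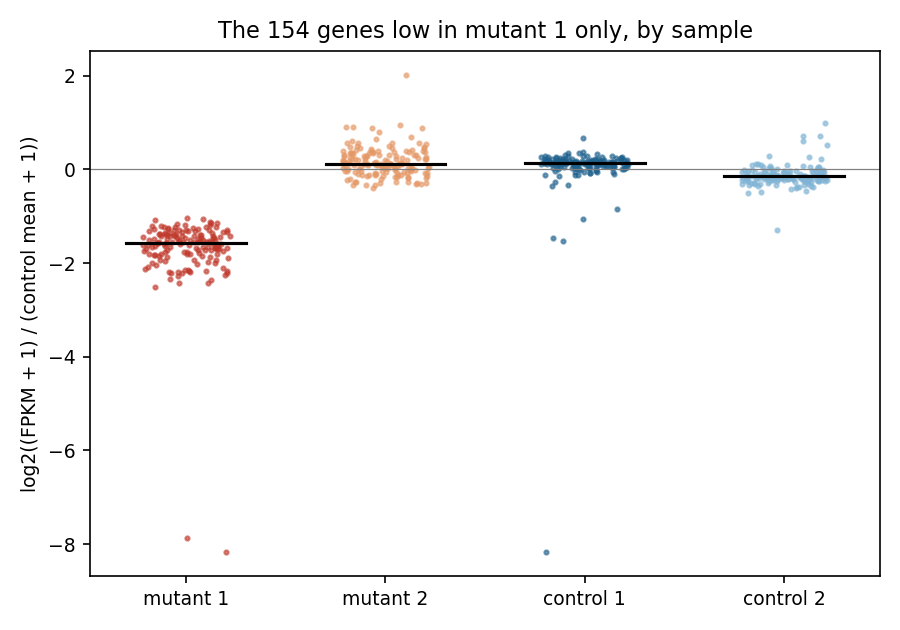
Each point is 1 of the 154 genes, placed by its log2((FPKM + 1)/(control mean + 1)) on the vertical axis in each of the 4 samples on the horizontal axis, with a black bar at the median. The median is -1.58 in mutant 1, 0.12 in mutant 2, 0.13 in control 1 and -0.15 in control 2, and the 2 lowest points of mutant 1 are Mir760 and Snora64.

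The controls were themselves not alike in these genes. Control 1 was above control 2 in 131 of the 154 (85.1%), against 47.7% of all 8662 genes, and the median log2 difference of control 2 from control 1 was -0.28, against 0.02 over all genes. The spread between controls thus had a direction in the members, but not in them alone. Control 1 was above control 2 in 91.1% of the genes low in both mutants and 90.9% of the round-spermatid markers. The share was 21.4% for the early-spermatocyte markers and 0% for the Sertoli-cell genes. Mutant 1 was the lowest of the 4 samples in 153 members, which largely follows from the limits, and in 19.9% of all 8662 genes. The exception was Snora64, a small nucleolar RNA listed at 0 in mutant 1 and in control 1, at 573 FPKM in control 2 and at 1170 FPKM in mutant 2. A value of 0 for so short a transcript can be a failed estimate, and no fold is given for it.

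Of the 154 symbols, 151 had 1 entry in every file, so that the confidence bounds written by the authors' software could be compared. In 146 of these the upper bound of mutant 1 lay under the lower bounds of the other 3 samples. The limits already set mutant 1 apart, so this count largely follows from the choice. In 5 it did not, namely Mir760, Snora64, 1700080N15Rik, Defb14 and 4930529L06Rik. These bounds cover the estimate within a sample and not the spread between animals. The controls differed more than 2-fold from each other in 6 members (Snora64, Hba-a1, 1700080N15Rik, Defb14, C030037D09Rik and Beta-s), and 106 members met both limits against each control taken alone.

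**Figure D2:**
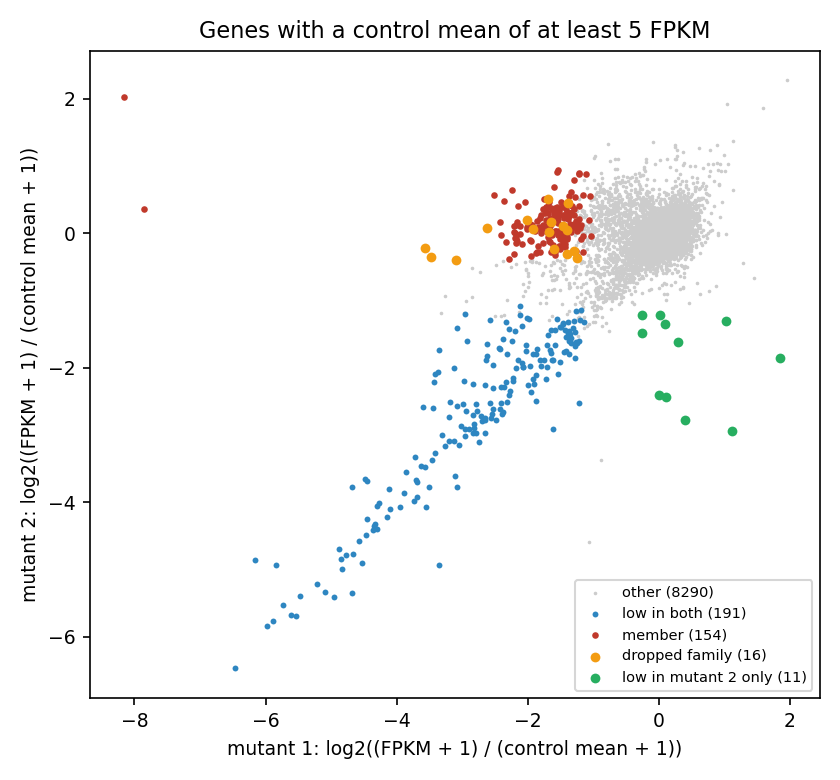
Each point is 1 of 8662 genes with a control mean of at least 5 FPKM, with log2((FPKM + 1)/(control mean + 1)) of mutant 1 on the horizontal and of mutant 2 on the vertical axis. The 154 members (red) and the 16 genes of dropped families (orange) lie at the left near the level 0 of mutant 2, the 191 genes low in both mutants (blue) run along the diagonal, and the 11 genes within the exchanged limits (green) lie at the bottom right.

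Among the members with a known place in the sperm head, proteins of the perinuclear theca, the cytoskeletal shell around the sperm nucleus, were the best represented. The list for the theca and actin-related proteins had 18 genes with a control mean of at least 5 FPKM, and 6 of them were members (33.3%, against 1.96% of all genes within the limits). The chromatin list had the same share within the limits, 5 of 15, but all 5 carried dropped symbols and so could not be members. Actrt2, a testis-specific actin-related protein, measured 49.2 FPKM in mutant 1, 156 in mutant 2, 137 in control 1 and 116 in control 2. Mutant 2 was the highest sample and mutant 1 the only one under 100 FPKM. Arpm1, whose current symbol is Actrt3, measured 2.28 FPKM in mutant 1 against 10.7 in mutant 2 and 12.5 and 10.7 in the controls. Actrt1, on the X chromosome, measured 1.52 FPKM in mutant 1 against 6.12 in mutant 2 and 5.81 and 6.09 in the controls, which makes it 1 of the members in which mutant 2 and both controls nearly coincided.

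Ccin encodes calicin, a basic protein of the calyx behind the acrosome. Its level was 18.03 FPKM in mutant 1, 76.1 in mutant 2, 64.5 in control 1 and 52.7 in control 2. Wbp2nl, which encodes the post-acrosomal WW-domain binding protein, gave 5.67 FPKM in mutant 1 against 19.7 in mutant 2 and 23.1 and 17.8 in the controls. Fscn3, a testis fascin that bundles actin filaments, was at 2.80 FPKM in mutant 1 against 15.5 in mutant 2 and 19.1 and 13.7 in the controls, or 17.1% of the control mean. In all 6 theca members the levels of mutant 1 were apart from those of the other samples, while mutant 2 was above both controls in some and between them in others.

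**Figure D3:**
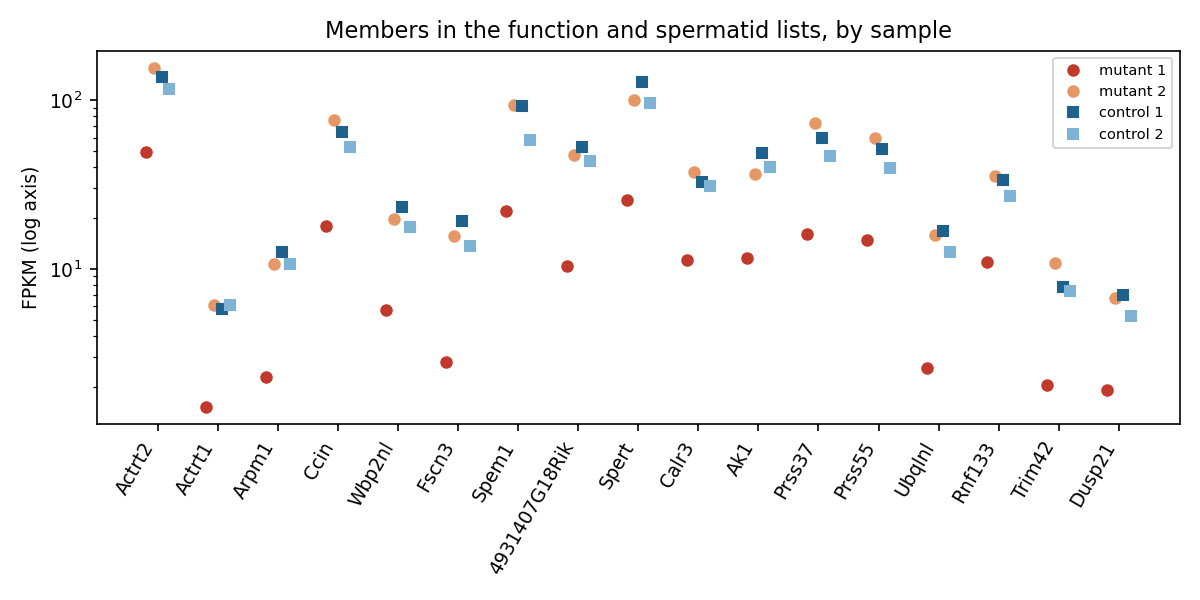
FPKM on a log axis is shown for 17 members of the sperm function and spermatid lists, by sample; circles are the mutants and squares the controls. Mutant 1 is the lowest point for each gene, for example 49.2 FPKM for Actrt2 against 116 to 156 FPKM in the other samples, and mutant 2 lies among or next to the controls.

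The list for elongating spermatids held 3 members, Spem1, 4931407G18Rik and Fscn3. Spem1, needed for spermatids to shed their cytoplasm, measured 21.9 FPKM in mutant 1, 93.5 in mutant 2, 92.6 in control 1 and 58.3 in control 2. The related Spem2, listed as 4933402P03Rik and named after its values were seen, lies on chromosome 11 as well and measured 9.25 FPKM in mutant 1 against 41.9 in mutant 2, 44.5 in control 1 and 31.9 in control 2, the order kept for sets of 3 values below. 4931407G18Rik is now named Cabs1, a calcium-binding protein of the spermatid, and measured 10.3 FPKM in mutant 1 against 47.4 in mutant 2 and 52.4 and 43.4 in the controls. In these genes mutant 2 was within or close to the range of the controls.

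Serine proteases expressed in the testis made up a group of 5 members, of which Prss37 and Prss55 belonged to the list for the acrosome and egg fusion. Prss37, which is needed for sperm to pass into the oviduct and bind the egg coat, measured 16.0 FPKM in mutant 1, 73.4 in mutant 2, 59.3 in control 1 and 46.8 in control 2. Prss55, also needed for sperm migration, measured 14.8 FPKM in mutant 1 against 59.96 in mutant 2 and 51.1 and 39.4 in the controls. Prss51 had a lower level, with 1.14 FPKM in mutant 1 against 5.18, 7.72 and 5.25. The whole group, with Prss52 and Prss58 added after their values were seen, stood between 17.5 and 32.8% of the control mean in mutant 1 and between 79.8 and 138% in mutant 2. Mutant 2 was above both controls in 3 of the 5.

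Of the list for the fibrous sheath and outer dense fibres, which are the sheaths around the sperm axoneme, Spert and Calr3 were members, out of 26 with a control mean of at least 5 FPKM. Spert (now Cby2) measured 25.7 FPKM in mutant 1, 101 in mutant 2, 129 in control 1 and 96.5 in control 2. Calr3, a testis chaperone of the endoplasmic reticulum, measured 11.2 FPKM in mutant 1 against 37.7 in mutant 2 and 32.5 and 30.9 in the controls. Ak1, an adenylate kinase that balances adenine nucleotides along the flagellum, was the 1 member of 23 in the energy list, at 11.6 FPKM in mutant 1 against 36.4 in mutant 2 and 48.6 and 40.3 in the controls. Mutant 2 was here below both controls, unlike most members.

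Ubiquitin-related genes gave 3 members of 24 with a control mean of at least 5 FPKM. Ubqlnl, a ubiquilin-like gene with a single exon, measured 2.60 FPKM in mutant 1 against 15.9 in mutant 2 and 16.8 and 12.6 in the controls. Rnf133, a RING-finger ubiquitin ligase, measured 10.9 FPKM in mutant 1 against 35.3, 33.6 and 27.01 in the same order. Trim42, of the tripartite-motif family, measured 2.06 FPKM in mutant 1 against 10.8, 7.80 and 7.35, so that mutant 2 was the highest sample. Dusp21, a dual-specificity phosphatase on the X chromosome and the 1 member of 28 in the list for kinases and phosphatases, measured 1.92 FPKM in mutant 1 against 6.68, 6.95 and 5.25. No gene of the lists for sperm ion channels, for translation and RNA storage or for round spermatids was a member.

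Chromatin genes were present through histone H2A. Hist1h2ad (now H2ac7) measured 1.23 FPKM in mutant 1, 17.9 in mutant 2, 11.3 in control 1 and 12.2 in control 2, and Hist1h2ah (now H2ac12) measured 0.863 FPKM against 12.8, 7.35 and 8.30 in the same order. These are replication-dependent H2A genes, whose transcripts usually end without a poly(A) tail. Their values in mutant 1 rest on few fragments, by estimate 7.18 and 4.89. By contrast, 5 members encode H2A variants of the spermatid on the X chromosome, chosen for mention after their values were seen. They lay between 26.3 and 39.1% of the control mean in mutant 1 and between 121 and 164% in mutant 2, and mutant 2 was above both controls in all 5. Gm14483, now H2al1a, measured 6.29 FPKM in mutant 1 against 34.6, 23.4 and 18.8. The H2A copies are close in sequence, so the reads may have been divided among them in ways that the files do not show.

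Of the 15 members with the lowest share in mutant 1, several code for enzymes. Oxct2a and Oxct2b, single-exon genes on chromosome 4 for the testis form of the enzyme that activates ketone bodies, measured 3.33 and 3.01 FPKM in mutant 1 against 16.9 and 20.1 in mutant 2, 22.6 and 23.9 in control 1 and 14.3 and 16.8 in control 2. They are near copies and count as uncertain for the same reason. Gpx6, a glutathione peroxidase, measured 1.38 FPKM in mutant 1 against 9.53, 9.70 and 7.25. Fam71a measured 4.57 FPKM in mutant 1 against 24.6, 26.6 and 22.5. Fam71a, Fam71b and Fam71f2, the last 2 named after their values were seen, ranged from 18.6 to 34.8% in mutant 1 and from 100.3 to 133% in mutant 2.

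The least characterised transcripts of that group were 1700009J07Rik, 1700027A15Rik and 1700016C15Rik. 1700027A15Rik, a long noncoding RNA, measured 19.1 FPKM in mutant 1, 120.0 in mutant 2, 124 in control 1 and 88.3 in control 2. 1700009J07Rik, also noncoding, measured 1.67 FPKM in mutant 1 against 11.4, 14.7 and 10.3, and 1700016C15Rik, which is protein coding, measured 4.17 FPKM against 24.7, 24.9 and 21.0. Mir760, the lowest of all, was listed at 0 in mutant 1 and at 297, 241 and 222 FPKM in the other samples. An FPKM for so short a transcript is an uncertain estimate, and no fold is given.

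The members with the highest control means were mostly testis transcripts of little-known function. 1700061J05Rik (now Tex33) measured 83.5 FPKM in mutant 1, 225 in mutant 2, 268 in control 1 and 209 in control 2. Cypt12, a cysteine-rich testis protein of the perinuclear theca family, measured 50.2 FPKM in mutant 1 against 185, 258 and 142. 1700026L06Rik (now Spaca9), a protein that associates with microtubules of the axoneme and acrosome, measured 51.0 FPKM in mutant 1 against 165, 184 and 140. In these 3 genes mutant 2 lay between the controls.

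Cst8, a cystatin of the male tract, measured 29.5 FPKM in mutant 1, 109 in mutant 2, 101 in control 1 and 87.0 in control 2. It lay on chromosome 2 with Cst13 and Cstl1, added after their values were seen, and the 3 cystatins stood between 26.7 and 31.3% in mutant 1 and between 116 and 195% in mutant 2, above both controls in all 3. 1700019N19Rik measured 57.3 FPKM in mutant 1 against 157, 147 and 142, and 1700092M07Rik 38.2 FPKM against 147, 166 and 110. 1700001J03Rik, 1700019M22Rik and 1700029H14Rik, with control means between 89.9 and 123 FPKM, ranged from 20.8 to 34.2% in mutant 1.

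A few members are known from cells other than spermatids. Aif1, which marks macrophages and is also transcribed in spermatids, measured 41.6 FPKM in mutant 1 against 124 in mutant 2 and 133 and 109 in the controls. The macrophage list as a whole was not low in mutant 1, with 0 of 4 genes below both controls and a median of 115% of the control mean, against 69.3% in mutant 2. Actg2, a smooth-muscle actin and the 1 member of the 4 measured genes of the peritubular myoid list, was at 26.6 FPKM in mutant 1 against 71.7, 81.1 and 54.7. Hba-a1, an alpha-globin of red blood cells, measured 12.2 FPKM in mutant 1, 94.2 in mutant 2, 23.6 in control 1 and 110.2 in control 2. The samples were here ordered differently, with mutant 1 and control 1 low and mutant 2 and control 2 high, and Beta-s, named after its values were seen, followed the same order at 20.7, 53.0, 30.6 and 81.6 FPKM. So did Hbb-b1, at a control mean of 3.95 FPKM, though it was listed at 0.0001 FPKM in both mutant 1 and control 1. Hba-a2, at 30.9, 18.8, 43.1 and 62.9 FPKM, and Hbb-b2, at 3.86, 0.965, 6.82 and 13.8 FPKM, did not, as mutant 2 was their lowest sample. These 3 were also named after their values were seen. The globin copies are close in sequence, so reads may have been divided among them, as for the H2A copies, and their separate orders are uncertain. The summed level of the 5 globin and blood genes was 49.5 FPKM in mutant 1, 128 in mutant 2, 76.5 in control 1 and 197 in control 2. The 3 of these genes with a control mean of at least 5 FPKM had medians of 37.4% of the control mean in mutant 1 and 35.4% in mutant 2. The controls themselves were far apart in these genes, at medians of 66.0% in control 1 and 134% in control 2. The part of blood in the samples was not tested.

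In names, 56 members carried a RIKEN clone symbol and 13 a Gm symbol in the files, and 34 had another symbol in current RefSeq. Among these, 9 now bear the name of a family that had been left out, such as Tex37 for 1700011F03Rik, Spata32 for 4933400C05Rik and Spata31d1a for Fam75d3 (named after their values were seen, other than Fam75d3). RefSeq gave 132 members as protein coding and 22 as noncoding or pseudogene. The 154 genes lay on all autosomes and the X chromosome, with 16 on chromosome 6, 15 on chromosome 2 and 14 each on chromosomes 11 and X. The X chromosome thus held 9.09% of the members against 2.68% of all 8662 genes, 3.70% of the elongating-spermatid list and 1.05% of the genes low in both mutants. Across the function lists the share ran from 0% for energy supply to 11.1% for the theca and 11.5% for the fibrous sheath and outer dense fibres. It was 6.25% in the dropped families within the limits. Of the 14 members on the X chromosome, 5 were the H2A variants described above. No test of enrichment was made.

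Markers of late spermatids were also at their lowest in mutant 1. The study reports that spermatids of the mutants stopped at the round stage and did not become elongating spermatids. The list called elongating spermatids is therefore named for normal testes. Its levels do not count elongating spermatids in either mutant. Of 27 markers of elongating spermatids, 26 were below both controls in mutant 1 and 3 in mutant 2, with medians of 50.4% and 122% of the control mean. Their summed FPKM was 3217 in mutant 1, 10283 in mutant 2, 11348 in control 1 and 8031 in control 2. Of the 27, 8 lay within the limits themselves, and the 19 others had medians of 58.8% in mutant 1 and 144% in mutant 2, with 18 below both controls in mutant 1 and 1 in mutant 2. Odf1, an outer dense fibre protein outside the limits, measured 136 FPKM in mutant 1 against 371 in mutant 2 and 335 and 264 in the controls. By limma 0 of 27 passed (0 lower and 0 higher), with 1 of 27 lower at an unadjusted p under 0.05, against 867 of all 12985 genes tested.

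Among the 16 genes of dropped families within the limits, the protamines and transition proteins were the most abundant. Prm1, the first protamine, measured 136 FPKM in mutant 1, 1195 in mutant 2, 1792 in control 1 and 1266 in control 2, and Prm2 measured 93.4, 969, 1370 and 875 FPKM. Tnp1, a transition protein, measured 152 FPKM in mutant 1 against 999, 1615 and 1015, and Tnp2 240 FPKM against 1571, 1810 and 1154. These 4 reached 8.32 to 16.2% of the control mean in mutant 1, where the members had a median of 29.1%. Control 1 was above control 2 in all 16, as it was in all 27 markers of elongating spermatids.

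Earlier stages did not show the difference to this extent. Of 22 markers of round spermatids, 17 were below both controls in mutant 1 and 4 in mutant 2, with medians of 82.5% and 116%. Crem, the activator of many spermatid genes, measured 53.7 FPKM in mutant 1, 61.1 in mutant 2, 64.6 in control 1 and 56.6 in control 2. Of 18 markers of pachytene spermatocytes, 3 were below both controls in mutant 1 and 6 in mutant 2, with medians of 101% and 98.8%. For the 14 of early spermatocytes the medians were 120% and 98.5%, and for the 6 of spermatogonia 116% and 102%. From early spermatocytes on, the medians in mutant 1 were lower with each later stage, whereas those in mutant 2 rose from 98.5 to 122%. The controls were ordered by stage as well. From early spermatocytes to elongating spermatids, control 1 rose from 92.9 to 111% and control 2 fell from 107 to 88.6%. Whether mutant 1 was at a less advanced stage of the first wave, or lost its most advanced spermatids, was not tested.

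The somatic lists had medians in mutant 1 of 124% for 10 Sertoli-cell genes and 127% for 6 Leydig-cell genes, against 102% and 85.6% in mutant 2. The controls spanned 82.3 to 118% for Sertoli cells. The 4 measured genes of the myoid list stood at 79.4% in mutant 1 and 94.6% in mutant 2. None of the endothelial list reached a control mean of 5 FPKM. No gene of these lists passed the limma test, at 0 of 12 tested for Sertoli cells, 0 of 8 for Leydig cells and 0 of 6 for myoid cells, and 0 of each passed at an unadjusted p under 0.05. The same held for 7 macrophage, 2 endothelial, 12 spermatogonial and 16 early-spermatocyte genes. Of 18 pachytene and 5 blood genes 0 passed, with 2 lower in each at an unadjusted p under 0.05, against 867 of all 12985 genes tested.

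**Figure D4:**
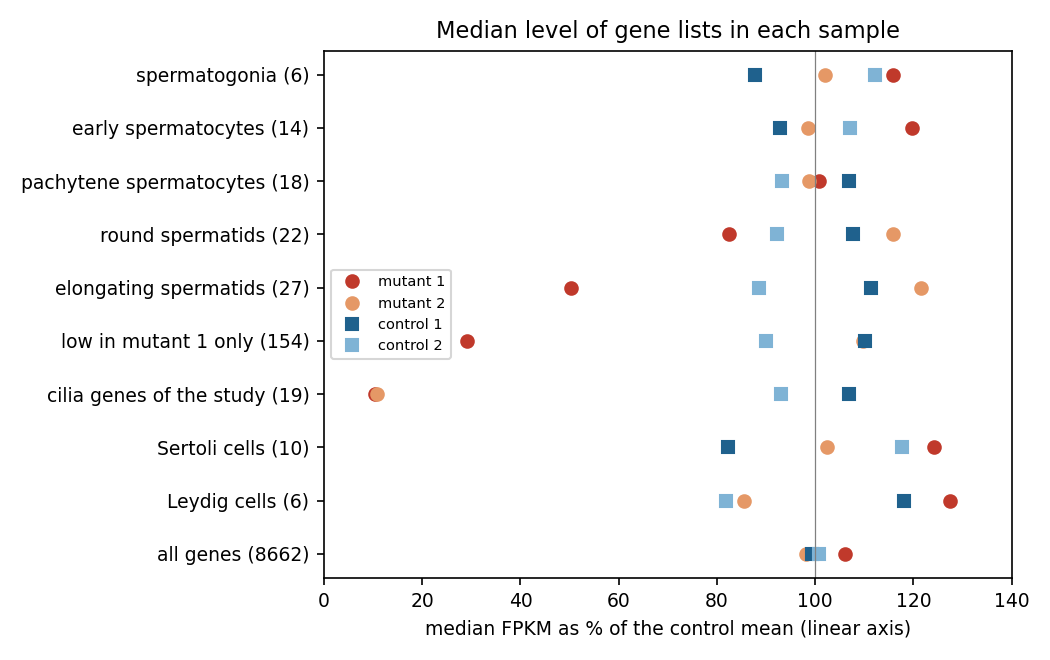
Horizontal positions are medians of FPKM as a percentage of the control mean, for each list named on the vertical axis with its number of genes, and 4 marks per row stand for the samples. Mutant 1 lies at 50.4% for elongating spermatids, 82.5% for round spermatids and 101% for pachytene spermatocytes, whereas both mutants lie at 10.3 and 10.8% for the cilia genes of the study.

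The cilia genes differed from the members in being low in both mutants. The study had chosen these 19 genes on the same samples, so that their direction here is not independent evidence. The study also measured cilia genes by real-time PCR and examined some of their promoters by chromatin immunoprecipitation with an RFX2 antibody. The medians of the 19 genes were 10.3% of the control mean in mutant 1 and 10.8% in mutant 2, and 17 of 19 were below both controls in each mutant. By limma 16 of the 19 were lower and 2 higher. Among the 154 members 0 passed in either direction, which follows from the choice of genes that differ between the mutants. At an unadjusted p under 0.05, 9 of the 154 were lower, against 867 of all 12985 genes tested. None of the 19 was a member. In other lists, where 2.52% of all genes tested were lower, the calls were 3 of 27 lower for the fibrous sheath and outer dense fibres, 2 of 29 for kinases and phosphatases, and 1 each of 22 for round spermatids, 24 for energy supply, 19 for the theca, 19 for ion channels and 25 for ubiquitin. No gene passed in the lists for the acrosome (0 of 33, 3 lower unadjusted), chromatin (0 of 19, 0 unadjusted) and translation (0 of 18, 0 unadjusted).

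In the function lists other than the cilia genes, mutant 1 was lowest for the theca, at a median of 44.4% of the control mean against 99.6% in mutant 2. The chromatin list followed with 52.0% and 123%, and the fibrous sheath and outer dense fibre list with 66.7% and 111%. The ubiquitin list stood at 72.0% and 114%, the energy list at 76.7% and 98.6%, the acrosome list at 77.3% and 118%, and the ion channel list at 78.8% and 97.8%. Kinases and phosphatases stood at 88.8% and 104%, and genes of translation and RNA storage at 102% and 95.1%. Over all 8662 genes the medians were 106% and 98.2%. The theca list held 6 members, the chromatin list 5 genes of dropped families within the limits, and the cilia list 0 of either.

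Promoter sequence was not used in the choice. In the 300 bases from 250 before to 50 after the start, 142 members had a promoter in the annotation, with a median of 3 CpG dinucleotides. All 8539 matched genes had a median of 21, the 185 low in both mutants 7, the 27 markers of elongating spermatids 3, the 22 of round spermatids 6.5 and the 18 of pachytene spermatocytes 23.5. Fewer than 10 CpG were found in 115 of the 142 (81.0%), against 19.7% of the matched genes and 61.6% of those low in both mutants. The median GC content was 50.8% in the members and 60.3% in the matched genes. The promoters of Actrt2, Spem1, Prss37 and Fscn3 printed above held 2, 2, 1 and 1 CpG in 300 bases, and that of Hspa2 26.

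**Figure D5:**
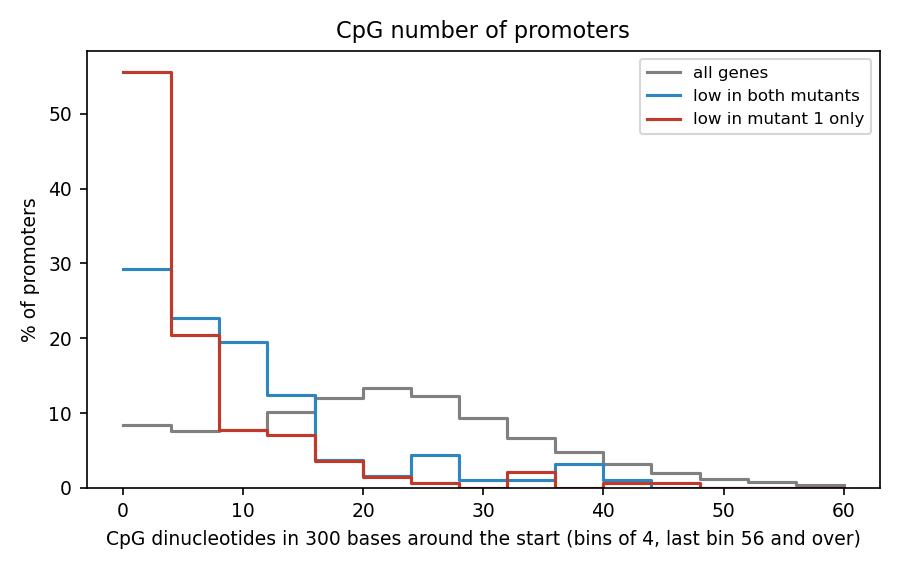
The percentage of promoters (vertical axis) is plotted by the number of CpG dinucleotides in 300 bases around the start (horizontal axis, bins of 4) for the members (red), the genes low in both mutants (blue) and all genes with a control mean of at least 5 FPKM (grey). The members peak in the first bin with 55.6% of their promoters.

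Motifs were searched as fixed letters on both strands. The full cAMP response element TGACGTCA was in 3 of 142 member promoters (2.11%), against 3.60% of the matched genes and 1.74% of all 33917 annotated promoters. It began 50 bases before the start in Ccin and 4933425H06Rik and 206 bases before it in C030037D09Rik. Its part TGACG, which overlaps the full element, was in 16.2%, against 33.6% of the matched genes and 19.7% of all promoters. The X-box, GTTNCC and GGNAAC with 0 to 3 bases between, was in 0 of 142, against 1.21% of the matched genes, 0.554% of all promoters and 4.86% (9 of 185) of the genes low in both mutants. The search also found it in 0 of the 19 cilia genes of the study and 0 of 27 elongating-spermatid markers. It was in 1 of 26 fibrous sheath, 2 of 17 ion channel and 1 of 28 kinase and phosphatase genes. The study used another consensus, GTNRCC and RGYAAC (R a purine, Y a pyrimidine). A count of 0 here thus does not set the members apart from RFX2 targets. TATAAA was in 9.86%, against 7.27% and 15.2%. These are matches of letters and say nothing about binding.

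The transcripts of the members were short and had few exons. The median was 4 exons in the members against 9 in all genes, and the median transcript length 1287 bases against 2413. Of 128 members with an exon number, 26 (20.3%) had a single exon, against 2.89% of 8363 genes. The markers of elongating spermatids had a median of 2 exons and 1265 bases, with 25.9% single-exon genes, and the genes low in both mutants 8 exons and 1858 bases, with 3.98%. Actrt1, Actrt2, Ccin, Ubqlnl, Rnf133, Dusp21, Oxct2a and Oxct2b were among the single-exon members.

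Near the limits, the members and their neighbours had like values. At the limit for mutant 1, Fam75d3, 4933422H20Rik and Gm11435 stood just inside at 39.8 to 39.99% of the control mean, and Tmem191c, Ttll8 and 1700016H13Rik just outside at 40.1 to 40.2%. At the limit for mutant 2, 1700019D03Rik, 4930529L06Rik and 1700025C18Rik stood inside at 76.1 to 78.8%, and Tcte3, Ttll10 and Agpat2 outside at 74.3 to 74.5%. At the limit for the control mean, Gm13547, Cpxcr1 and 1700080N15Rik stood inside at 5.54 to 5.67 FPKM, and 1700008P02Rik, Asb15 and Fhdc1 outside at 4.76 to 4.92 FPKM.

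The 11 genes within the exchanged limits included Rpl34, Snhg9, Amd1 and Mxra8, named after their values were seen. Mxra8 measured 25.1 FPKM in mutant 1, 5.999 in mutant 2, 10.8 in control 1 and 29.9 in control 2, so that the controls differed by more than 2-fold. Snhg9 measured 40.5, 7.24, 38.8 and 0 FPKM in the same order.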

How the data were processed

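Total testicular RNA of 24-day-old mice was sequenced on an Illumina HiSeq instrument. The authors aligned reads to mm9 with TopHat2 2.0.6 and estimated transcripts with Cufflinks; the deposited FPKM values, with their confidence bounds, come in 1 file per sample, normalised within the sample. The files hold no counts; the study states the total reads of each sample, which were not used here, so precision rests on the deposited bounds.

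FPKM were summed by symbol. The genes were chosen by the limits stated above, and the genes and all lists were chosen with earlier results of these data known. All genes with at least 1 FPKM in at least 2 of 4 samples were tested on log2(FPKM + 1) with limma 3.58.1 (R 4.3.3; trend; two-sided, Benjamini-Hochberg, threshold 0.05), a step tested on simulated data. The pseudocount understates changes of low genes. Replicates were 2 per group. Promoters came from the NCBIM37 genome and GENCODE annotation, current symbols and gene types from RefSeq. Tables used Python 3.11.15 with pandas 2.3.3. Genes named were the members in any list, the 15 lowest in mutant 1, the 15 highest in the controls and 3 on either side of each limit; others are marked as chosen after their values were seen. Alternatives covered filter, pseudocount, scaling, replicate block, each sample left out and the limits. No columns of other samples were used.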

Additional observations from a re-analysis of the deposited data

How the results depend on the processing

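The number of genes within the limits was 83 with mutant 1 at most 0.3 of the control mean and 258 with at most 0.5, against 154. Under the other limits and scalings it ran from 106 (each control alone, chosen after seeing the data) to 228 (control mean at least 1). Without control 1 it was 147, of which 123 were among the 154, and without control 2 it was 162, of which 128 were. Leaving out a mutant gives no value, as the rule needs both. The 327 genes lower by limma became 199 with no filter, 202 with a filter at 5 FPKM and 206 with median-ratio scaling, and 79 (without control 1) to 944 (without mutant 2) with a sample left out, where the lone sample is assumed to vary like the other group. The 40 higher became 17 with no filter, 17 with a filter at 5 FPKM and 16 with median-ratio scaling, and 10 (without control 2) to 138 (without mutant 1) with a sample left out. With the replicate number of the labels as a block, 525 genes were lower and 70 higher, and 43 of the 154 were lower. The labels give no shared origin, and same-numbered samples deviated with a correlation of -0.15. The crossed pairing, added after seeing the data, gave 266 lower and 28 higher, and 0 of the 154. Without mutant 2, 153 of 153 members tested were lower, as the limits require, and without mutant 1, 6 were higher. The causes of these shifts were not tested. Medians of the members and of the pachytene, round and elongating lists moved by less than the standard deviation of the control medians under every alternative run on them. Leaving out a control moves the reference by only part of the difference between controls. The runs without a control could therefore hardly exceed this limit. For low values in mutant 1, the number of fragments was estimated from the deposited bounds. It was 116 for Arpm1 and 52.0 for Actrt1, but 7.18 for Hist1h2ad and 4.89 for Hist1h2ah. The estimate was under 30 in 13 members. No other counting error was computed.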
